A study of Mus musculus with 6 samples.

Results

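Lipins and the acyltransferases of triglyceride synthesis are the enzymes that build fat from glycerol and fatty acids. The 10 genes described here are Gpam, Agpat1, Agpat2, Agpat3, Lpin1, Lpin2, Lpin3, Mogat2, Dgat1 and Dgat2, chosen by name from the 19938 genes tested. Each of the 10 had a single probe set annotated to it alone. Scrapings of the mucosa of the jejunum, a part of the small intestine that absorbs most dietary fat, were hybridised to 6 arrays, 3 from ISR2 mice and 3 from wild type littermates. ISR2 is a transgenic line in which the transcription factor SREBP2 is overactive in the intestine. SREBP2 is the main activator of the genes with which a cell makes and takes up cholesterol. Both groups had a C57/BL background, were 8 to 10 weeks old, ate regular chow and lived in a cycle of 12 h light and 12 h dark. The sources used here give neither the promoter nor the form of the transgene. Nor is it stated whether 1 mouse or a pool lies behind each array. The p-values therefore refer to variation between these samples and not to a known number of mice.

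Triglyceride is made along a pair of routes that meet at diacylglycerol. In the glycerol phosphate route, Gpam adds the first fatty acid to glycerol 3-phosphate, Agpat enzymes add the next to give phosphatidic acid, and lipins remove its phosphate. In the monoacylglycerol route, which carries most of the dietary fat taken up by the enterocyte, Mogat2 makes diacylglycerol directly. Dgat1 and Dgat2 then add the last fatty acid, and the product leaves the cell in chylomicrons. Gpam and Lpin1 are known targets of SREBP factors in other tissues.

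Values are log2 expression after RMA, a method that corrects background and equalises the arrays. Fold changes are therefore relative to the bulk of genes, whose median log2 change was -0.06. Srebf2, the gene for SREBP2, was at 11.02, 10.85 and 11.16 in ISR2 mucosa and 9.04, 9.15 and 9.50 in wild type mucosa, which is the direction of the labels. The enterocyte markers averaged 12.71 to 12.95 in ISR2 arrays and 13.07 to 13.12 in wild type arrays, and the liver markers 5.08 to 5.36 in ISR2 and 4.95 to 5.38 in wild type. Smooth muscle markers stood apart in replicate 2 of both groups, with means of 10.17 in ISR2 replicate 2 and 11.02 in wild type replicate 2, against 7.26 to 7.95 in the other 4 arrays. Calls were made by limma at a Benjamini-Hochberg adjusted p of 0.05 over all genes, and the number of arrays limits the precision.

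Both genes with large rises, Lpin1 and Gpam, and the paralogue Lpin2 are shown by their promoters, 250 bases before to 50 after a transcription start (RefSeq, GRCm38.p6). Capitals mark matches to any of 4 motifs searched on both strands: the sterol regulatory element core TCACNCCAC, the CCAAT box CCAAT, the Sp1 box GGGCGG and the E-box CACGTG. No 2 matches overlapped in the promoters printed.
Lpin1, chr12:16610917-16611216, minus strand: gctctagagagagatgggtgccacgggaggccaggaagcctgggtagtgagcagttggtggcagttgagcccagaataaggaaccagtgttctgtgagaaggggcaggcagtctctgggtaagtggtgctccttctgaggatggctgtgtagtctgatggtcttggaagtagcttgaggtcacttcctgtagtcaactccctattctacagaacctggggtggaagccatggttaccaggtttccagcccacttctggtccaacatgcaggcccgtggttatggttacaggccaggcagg
Gpam, first start, chr19:55127189-55127488, minus strand: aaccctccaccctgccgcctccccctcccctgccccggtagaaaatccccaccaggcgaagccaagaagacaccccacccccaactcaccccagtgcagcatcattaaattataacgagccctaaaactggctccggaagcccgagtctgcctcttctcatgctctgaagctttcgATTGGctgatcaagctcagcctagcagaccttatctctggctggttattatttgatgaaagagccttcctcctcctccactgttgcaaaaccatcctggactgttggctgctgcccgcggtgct
Gpam, second start, chr19:55099428-55099727, minus strand: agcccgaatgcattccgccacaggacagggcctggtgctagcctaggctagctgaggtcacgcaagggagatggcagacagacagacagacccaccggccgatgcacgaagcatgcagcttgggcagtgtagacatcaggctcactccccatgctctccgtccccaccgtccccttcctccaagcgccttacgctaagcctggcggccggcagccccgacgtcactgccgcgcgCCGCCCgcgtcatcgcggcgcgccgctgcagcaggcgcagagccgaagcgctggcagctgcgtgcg
Lpin2, first start, chr17:71183282-71183581, plus strand: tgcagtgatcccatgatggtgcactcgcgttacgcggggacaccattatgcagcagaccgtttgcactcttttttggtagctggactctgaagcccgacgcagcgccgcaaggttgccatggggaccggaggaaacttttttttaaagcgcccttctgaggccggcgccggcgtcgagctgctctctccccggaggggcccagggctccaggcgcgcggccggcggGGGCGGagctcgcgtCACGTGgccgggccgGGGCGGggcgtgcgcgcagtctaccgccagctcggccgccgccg
The Lpin1 window held none of these letters, and the Gpam windows held a CCAAT box at -74 and an Sp1 box at -16 from their starts. The Lpin2 window held an Sp1 box at -24, an E-box at -9 and an Sp1 box at 7. The other 2 Lpin2 windows, not printed, held an Sp1 box at -79 in one and CCAAT boxes at -233, -165 and -57 in the other. The RefSeq table held 12 promoters of 7 members. Of these 12, 0 had the sterol regulatory element core, 3 the CCAAT box, 7 the Sp1 box and 2 the E-box. Among all 32851 promoters of this length in the table, the same motifs were present in 1.24%, 37.4%, 35.7% and 7.15%. A match is a description of the letters and not a binding site, and its absence says only that these letters are not in the window.

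Of the 10 genes, 3 rose in ISR2 mucosa (Lpin1, Gpam and Lpin2), 1 fell (Dgat2) and 6 did not pass. Over all genes tested 3.02% were called, 1.79% as higher and 1.23% as lower in ISR2. Without replicate 2 of both groups, 2 rose and 1 fell. The median log2 change was -0.23 over the 10 genes, since 6 of them were lower, against -0.06 over all genes. Every one of the 10 had all 3 ISR2 arrays on one side of all 3 wild type arrays, 4 above and 6 below. Over all genes such separation held for 19.8%, in 5.87% with ISR2 above and in 13.9% with ISR2 below. It depended on the scaling: with each array centred on its median, 5 of the 10 stayed separated, namely Gpam and the 3 lipins above and Dgat2 below, against 16.6% of all genes. In a tissue sample, fewer cells of a type and less RNA per cell cannot be told apart.

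**Figure D1:**
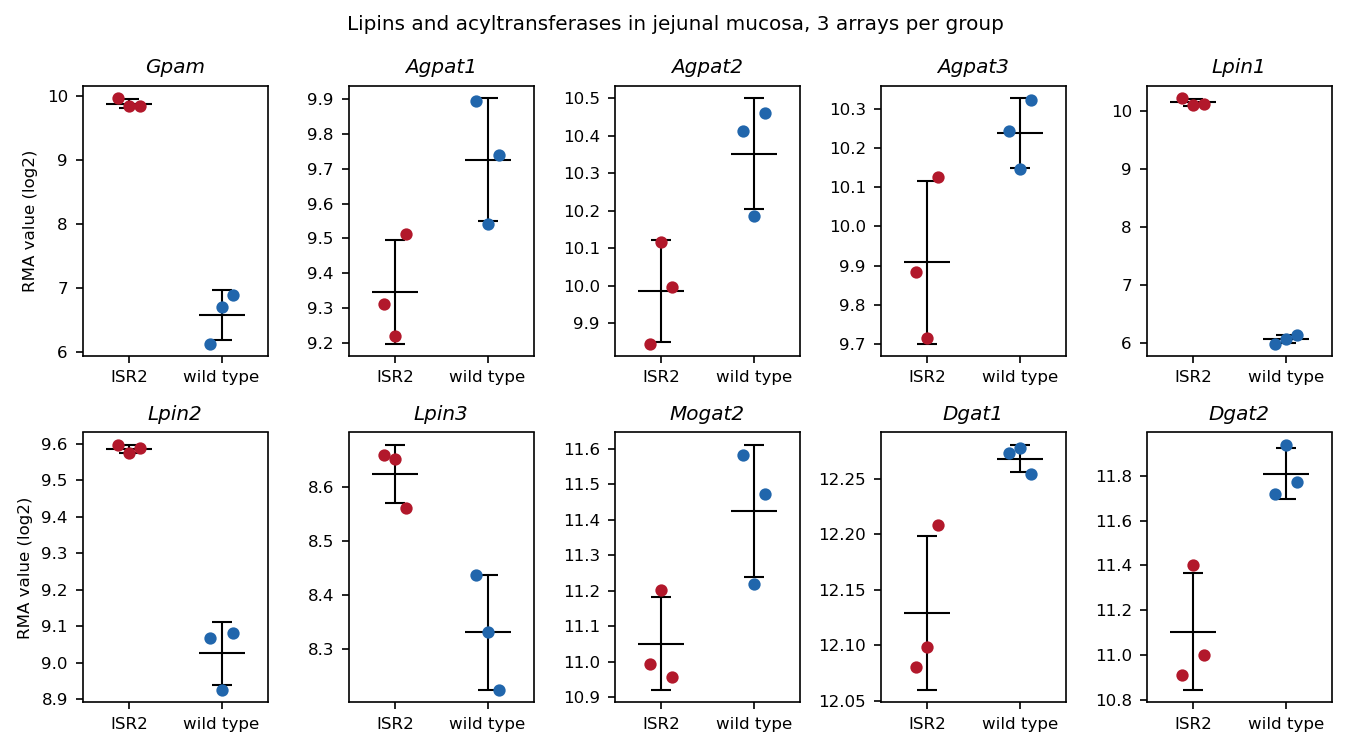
RMA values (log2) of the 10 genes on each array, one panel per gene with its own axis, ISR2 in red and wild type in blue; the bar and whiskers are the mean and SD of 3 arrays. In every panel the ISR2 points lie wholly above or wholly below the wild type points, by 3.97 for Lpin1 and by 0.02 for Agpat3.

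The first acylation is the step of Gpam, the mitochondrial glycerol-3-phosphate acyltransferase (probe set 10468533). Gpam was at 9.97, 9.84 and 9.84 in ISR2 replicates 1, 2 and 3, and at 6.14, 6.72 and 6.90 in wild type replicates 1, 2 and 3. The ISR2 arrays lay close together and far above the wild type arrays, of which replicate 1 was the lowest. The log2 difference of 3.30 ± 0.19 (SE; 3 arrays in each group) was a rise of 9.85-fold (limma adjusted p = 1.7e-05). Leaving out wild type replicate 1, the lowest array, gave 3.08, and all 6 fits without 1 array kept the call. The other members of this enzyme step, taken as a family after their values were seen, did not pass. Gpat4, an acyltransferase of the endoplasmic reticulum, differed by 0.50 ± 0.14 (SE; limma adjusted p = 0.112), Gpat3 by -0.16 ± 0.13 and Gpat2 by -0.42 ± 0.14.

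The next acylation, which makes phosphatidic acid, is the work of the Agpat enzymes. Agpat1 and Agpat2 are the main lysophosphatidic acid acyltransferases, and Agpat2 is the one whose loss causes lipodystrophy in humans and mice. Agpat1 was at 9.31, 9.22 and 9.51 in ISR2 arrays and at 9.90, 9.54 and 9.74 in wild type arrays. Agpat2 was at 9.85, 10.12 and 10.00 in ISR2 arrays and at 10.41, 10.19 and 10.46 in wild type arrays. Agpat3 was at 9.88, 9.72 and 10.13 in ISR2 arrays and at 10.24, 10.15 and 10.32 in wild type arrays. In all 3 genes the ISR2 arrays were lower without overlap, but the nearest arrays of the groups were only 0.03, 0.07 and 0.02 apart for Agpat1, Agpat2 and Agpat3. The log2 differences were -0.38 (95% interval -0.70 to -0.06), -0.37 (-0.67 to -0.06) and -0.33 (-0.65 to -0.01) in the same order. None passed the adjusted threshold in limma (adjusted p = 0.286, 0.274 and 0.367), and after median centring the groups overlapped in each. Direct comparison of the 3 changes with each other found differences of at most 0.05 on the log2 scale, and exact permutation tests gave p = 0.9, 0.7 and 0.9 for Agpat1 against Agpat2, Agpat1 against Agpat3 and Agpat2 against Agpat3 (each 0.9 adjusted over the 8 pairs of genes compared). The SE of these differences, taken from their own spread and not from limma, was 0.14, 0.09 and 0.17.

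The lipins remove the phosphate of phosphatidic acid to give diacylglycerol, and lipin 1 also acts in the nucleus as a coactivator of fatty acid oxidation genes in liver. Lpin1 (probe set 10399478) was at 10.21, 10.09 and 10.12 in ISR2 arrays and at 5.98, 6.06 and 6.12 in wild type arrays. The spread within either group was small beside the gap between them, with an SD of 0.06 in ISR2 and 0.07 in wild type. The rise was 4.08 ± 0.12 on the log2 scale (SE), or 17.0-fold (limma adjusted p = 4.3e-07), and only 2 of the 19938 genes had a smaller p. The change stayed between 4.05 and 4.12 when any 1 array was left out. No detection call was used here, and background signal left in a low wild type value would make the measured fold an underestimate.

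Lpin2, whose human gene is mutated in Majeed syndrome, an inflammatory bone disease, had a smaller measured change. Lpin2 (probe set 10446656) was at 9.60, 9.57 and 9.59 in ISR2 arrays and at 9.07, 8.92 and 9.08 in wild type arrays. All ISR2 arrays were above all wild type arrays, and the SD was 0.01 in ISR2 against 0.09 in wild type. The rise of 0.56 ± 0.12 (SE), or 1.47-fold, passed in limma (adjusted p = 0.0381) but in none of the 6 fits without 1 array (adjusted p = 0.0619 to 0.162). The size of the change varied only from 0.51 to 0.59 in those fits. Lpin3, the third lipin, was at 8.66, 8.65 and 8.56 in ISR2 arrays and at 8.44, 8.33 and 8.22 in wild type arrays, a difference of 0.29 ± 0.12 (SE; 95% interval 0.02 to 0.57) that did not pass (limma adjusted p = 0.345).

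Whether the 3 lipins differed in the size of their changes was tested within arrays. The change of Lpin1 exceeded that of Lpin2 by 3.52 ± 0.07 and that of Lpin3 by 3.79 ± 0.11 on the log2 scale (SE). An SE of this kind uses only the spread of the within-array differences. It is not comparable with the limma SE of a single gene, which also draws on all genes. Lpin2 exceeded Lpin3 by 0.27 ± 0.09. Each had p = 0.1 in an exact two-sided permutation test, the smallest that 3 against 3 arrays can give, and 0.2 after adjustment over the 8 pairs.

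**Figure D2:**
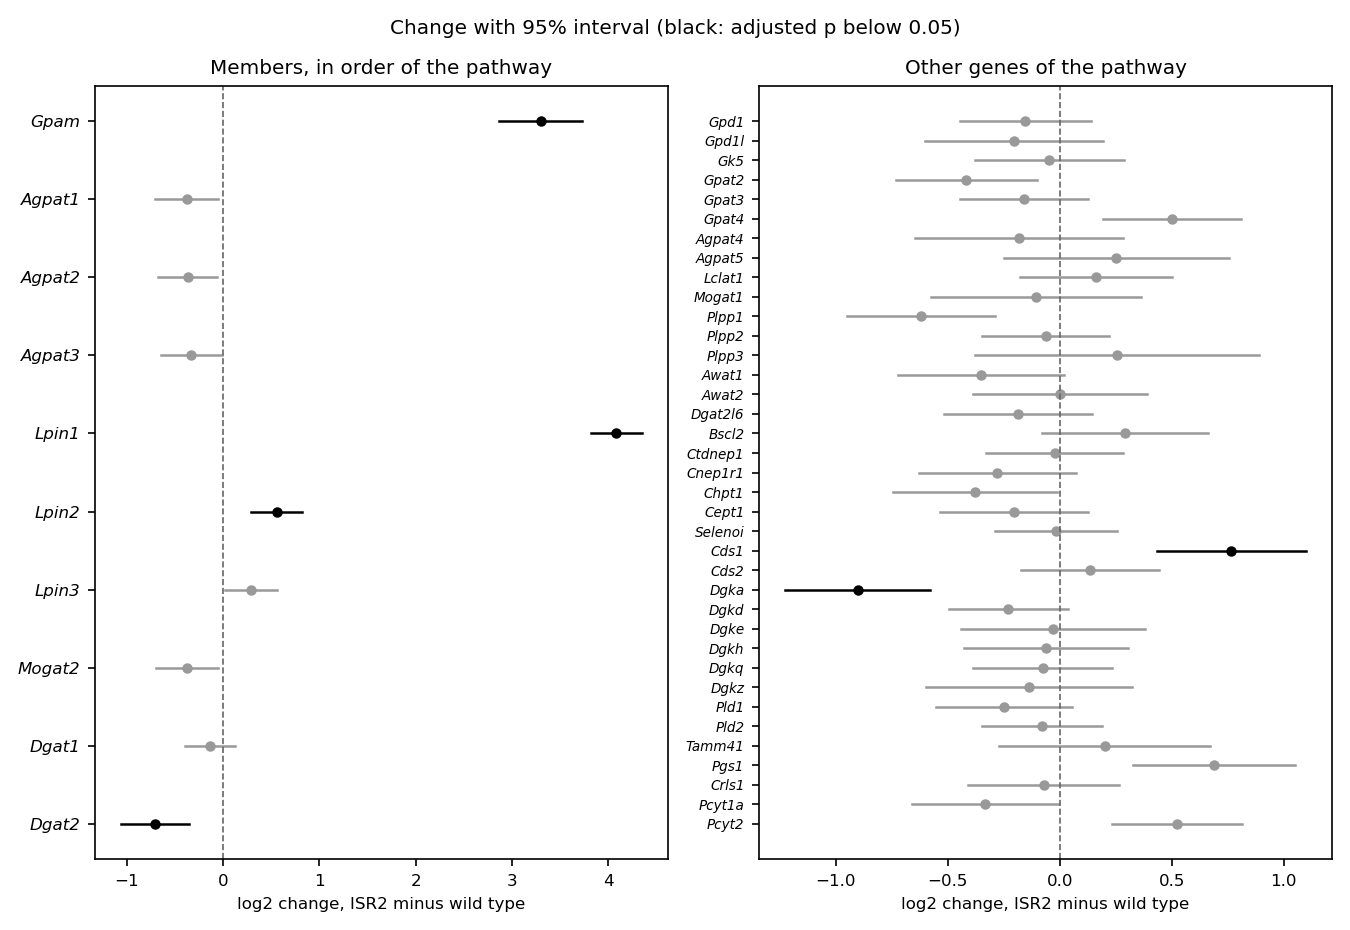
Log2 change, ISR2 minus wild type, with its 95% interval from limma, for the 10 genes in pathway order on the left and for other genes of the pathway on the right; the horizontal scales differ. Black points passed an adjusted p of 0.05: Gpam at 3.30, Lpin1 at 4.08, Lpin2 at 0.56, Dgat2 at -0.70, Cds1 at 0.77 and Dgka at -0.90.

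The genes whose pattern over the 6 arrays was closest to Lpin1 were Sqle, Mvd, Pmvk, Tm7sf2 and Fdft1. The measure was the root-mean-square difference of log2 values after each gene was centred on its own mean, over all genes tested, and it was 0.13, 0.15, 0.20, 0.22 and 0.23 in that order. These encode squalene epoxidase, mevalonate diphosphate decarboxylase, phosphomevalonate kinase, a sterol reductase and squalene synthase, all enzymes of cholesterol synthesis. Their log2 changes were 4.06, 3.99, 3.69, 3.83 and 3.70. The likeness is set mainly by the size of the difference between the groups and was given no test.

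**Figure D3:**
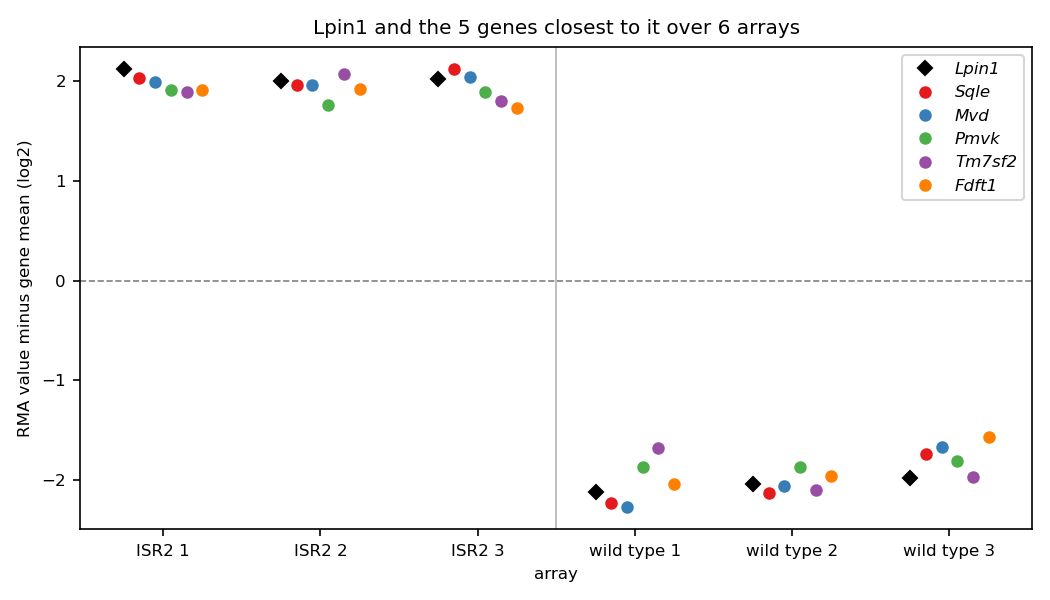
RMA value of Lpin1 and of the 5 genes closest to it, each minus its own mean over 6 arrays (log2), for 3 ISR2 arrays on the left of the grey line and 3 wild type arrays on the right. All 6 genes lie above their mean in ISR2 and below it in wild type, with root-mean-square differences to Lpin1 of 0.13 to 0.23.

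Of the monoacylglycerol and diacylglycerol acyltransferases Mogat2, Dgat1 and Dgat2, Dgat2 fell and the other two did not pass; after median centring the groups overlapped in Mogat2 and Dgat1. Mogat2, the intestinal monoacylglycerol acyltransferase, was at 10.99, 11.20 and 10.96 in ISR2 arrays and at 11.58, 11.22 and 11.47 in wild type arrays. The highest ISR2 array was only 0.02 below the lowest wild type array, both of them replicate 2. The difference of -0.37 ± 0.14 (SE; 95% interval -0.70 to -0.05) did not pass (limma adjusted p = 0.29), and without replicate 2 of both groups it was -0.55 (limma adjusted p = 0.149). Dgat1, which in intestine carries much of the final acylation, was at 12.08, 12.10 and 12.21 in ISR2 arrays and at 12.27, 12.28 and 12.25 in wild type arrays. Its difference of -0.14 was the smallest of the 10 (95% interval -0.40 to 0.12; limma adjusted p = 0.695), so a fall of up to 0.40 is within the interval.

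Dgat2 encodes a diacylglycerol acyltransferase unrelated in sequence to Dgat1 and related to Mogat2 (probe set 10565775). It was at 10.91, 11.40 and 11.00 in ISR2 arrays and at 11.72, 11.94 and 11.77 in wild type arrays. Replicate 2 was the highest array in both groups, and the groups did not overlap. The fall was -0.70 ± 0.16 on the log2 scale (SE), so that ISR2 was 1.63-fold lower (limma adjusted p = 0.0494). Only the fit without ISR2 replicate 2 kept the call when 1 array was left out (-0.85, adjusted p = 0.012), and in the other 5 fits the adjusted p was 0.112 to 0.213. After median centring it did not pass either (-0.63, limma adjusted p = 0.103). The changes of Dgat1 and Dgat2 differed by 0.57 ± 0.18 (SE), with p = 0.1 in an exact permutation test and 0.2 adjusted over the 8 pairs. The changes of Dgat2 and Mogat2 differed by -0.33 ± 0.19, with p = 0.2 in the exact test and 0.32 adjusted.

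**Figure D4:**
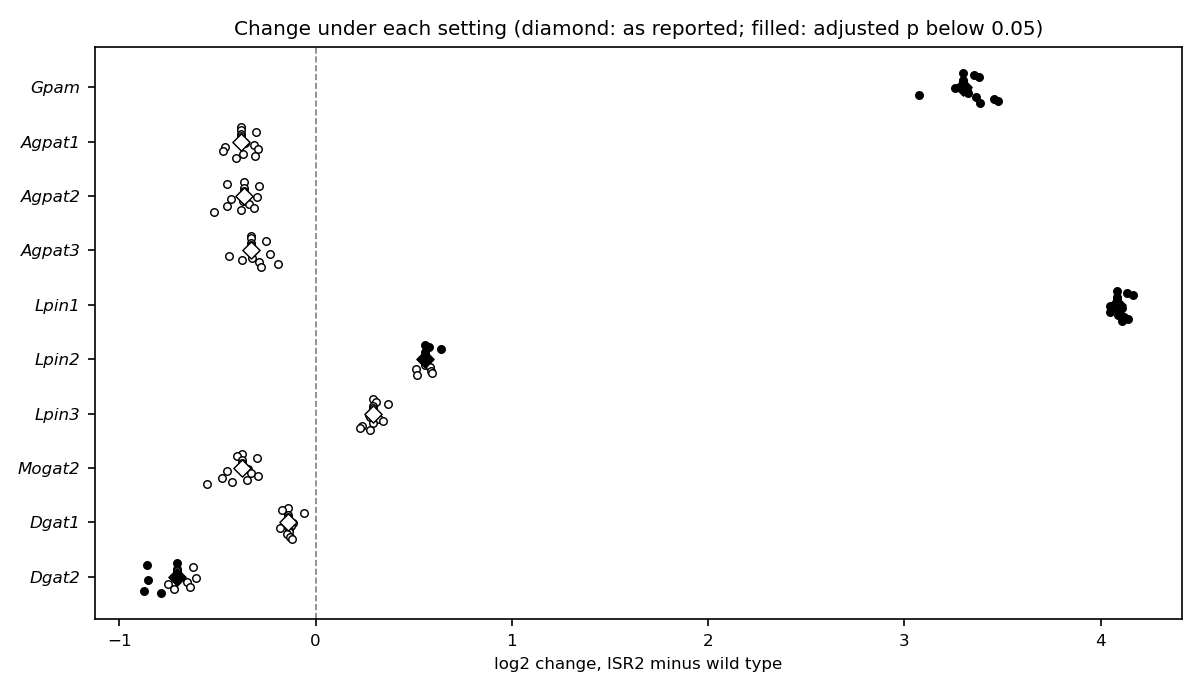
Log2 change, ISR2 minus wild type, of the 10 genes as reported (diamonds) and under 15 other settings (circles), filled where the adjusted p was below 0.05. Lpin1 and Gpam are filled throughout, Lpin2 and Dgat2 in part and the other 6 nowhere. No circle lies on the other side of 0 from its diamond, and only median centring could have put one there.

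Markers of other cells were measured beside these genes. Of 10 enterocyte markers 1 fell, the alkaline phosphatase gene Alpi, and 8 were lower, with a median log2 change of -0.26. An unadjusted p below 0.05, reached by 13.1% of all genes, was reached by 5 of the 10, all lower in ISR2 (Vil1, Apoa1, Apoa4, Alpi and Lct). Fabp1 and Sis were higher, each with a log2 difference of 0.14, and Fabp2 and Mttp differed by -0.03 and -0.09. The enterocyte means of the 3 ISR2 arrays lay below those of the 3 wild type arrays. The 6 lower genes described here were also separated with ISR2 below, as were 13.9% of all genes. After median centring only Dgat2 of the 6 stayed separated. Of 7 adipocyte markers 0 passed in limma and 2 had an unadjusted p below 0.05 (4 higher and 3 lower, median 0.14), and their mean was 6.49, 7.14 and 6.21 in ISR2 replicates 1, 2 and 3 and 6.71, 6.48 and 6.69 in wild type replicates 1, 2 and 3. Adipoq, the adiponectin gene that defines fat cells, was likewise highest in ISR2 replicate 2, at 4.54, 5.45 and 4.14 in ISR2 arrays and 4.63, 3.80 and 4.51 in wild type arrays. These Adipoq values are low and were not shown to be above background. The pair with an unadjusted p below 0.05, the lipid droplet gene Cidec and the lipase gene Lipe, went the other way, with log2 differences of -0.74 ± 0.17 and -0.49 ± 0.12 (SE; limma adjusted p = 0.0515 and 0.0675). Cidec was at 9.25, 9.63 and 9.02 in ISR2 arrays and 10.06, 9.95 and 10.11 in wild type arrays. Among the genes described here, ISR2 replicate 2 had the highest ISR2 values of Dgat2, Mogat2 and Agpat2. It had the lowest ISR2 values of Agpat1, Agpat3, Lpin1 and Lpin2. The enterocyte mean of this array, 12.95, was the highest of the ISR2 arrays as well. No marker passed in limma among 6 smooth muscle, 4 goblet cell, 4 Paneth cell, 4 pancreatic acinar and 3 liver genes measured, of which 3 Paneth cell genes had an unadjusted p below 0.05, all lower in ISR2. The part of enterocyte and fat cell content in these values was not tested.

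**Figure D5:**
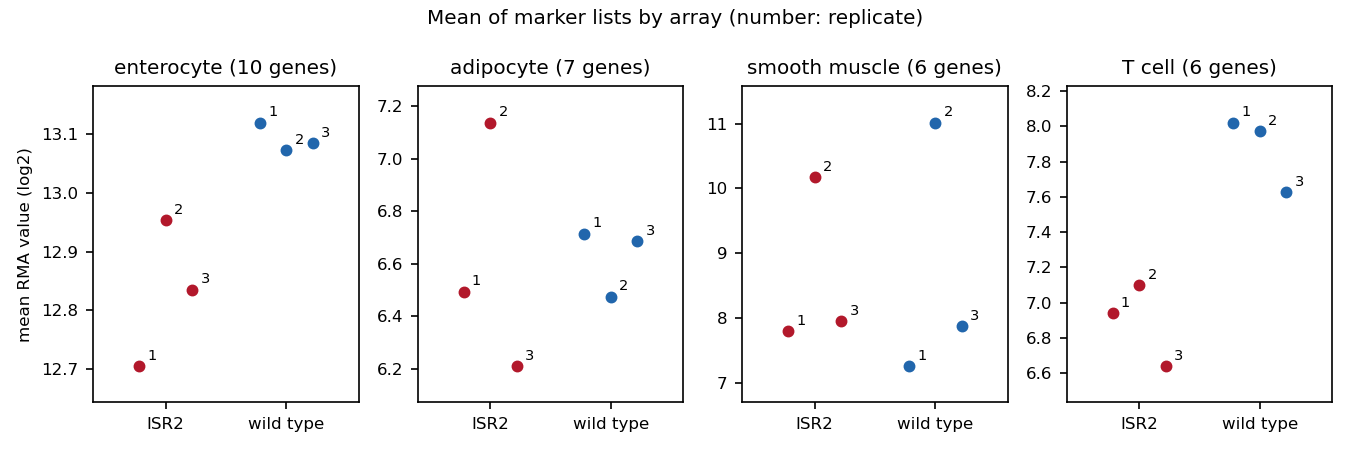
Mean RMA value (log2) of 4 lists of cell type markers on each array, ISR2 in red on the left and wild type in blue on the right of each panel, numbered by replicate; each panel has its own axis. Replicate 2 of both groups stands high in smooth muscle markers (10.17 and 11.02), and ISR2 replicate 2 in adipocyte markers (7.14).

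Other enzymes of triglyceride synthesis gave no call. The 17 measured genes included the glycerol phosphate dehydrogenase Gpd1, the remaining Gpat and Agpat genes, Mogat1 and the seipin gene Bscl2. In limma 0 rose and 0 fell, and the median log2 change was -0.11. An unadjusted p below 0.05 was reached by 3 of the 17, and by 13.1% of all genes. The largest difference was that of Plpp1, a membrane lipid phosphatase that also acts on phosphatidic acid, at 8.98, 8.93 and 9.24 in ISR2 arrays and 9.76, 9.46 and 9.79 in wild type arrays. It was separated between the groups but did not pass (-0.62 ± 0.15, SE; limma adjusted p = 0.0642). The phosphatase that dephosphorylates lipins and so lets them reach the membrane has a catalytic subunit, Ctdnep1, and a partner, Cnep1r1. Neither passed (both are given, as subunits of 1 enzyme), with log2 differences of -0.02 ± 0.13 and -0.28 ± 0.15 (SE; limma adjusted p = 0.97 and 0.515).

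Among 18 measured genes of enzymes that use or make diacylglycerol and phosphatidic acid by other routes, 1 rose and 1 fell, 6 had an unadjusted p below 0.05 (13.1% of all genes did), and the median was -0.07. Cds1, which turns phosphatidic acid into CDP-diacylglycerol for phosphatidylinositol and cardiolipin, was at 10.97, 10.91 and 11.30 in ISR2 arrays and 10.28, 10.17 and 10.43 in wild type arrays. The groups did not overlap, and the rise was 0.77 ± 0.15 (SE), or 1.70-fold (limma adjusted p = 0.0257). Its call was lost, with an adjusted p of at most 0.117, without either of ISR2 replicates 1 and 3 or wild type replicates 1 and 2. It was lost as well without replicate 2 of both groups (adjusted p = 0.0729).

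Dgka, a kinase that turns diacylglycerol back into phosphatidic acid and is known for its part in T cells, was at 10.23, 10.16 and 10.12 in ISR2 arrays and 11.25, 11.15 and 10.82 in wild type arrays. It fell by 0.90 on the log2 scale (SE 0.14; limma adjusted p = 0.00898). The call was lost without wild type replicate 1 (-0.82, adjusted p = 0.051) and without replicate 2 of both groups (-0.86, adjusted p = 0.0656). T cell markers fell on the same arrays in 5 of 6 measured genes, while 1.23% of all genes were called lower. The other marker, Cd2, had a mean of 5.10 in both groups. Means of the T cell list were 6.94, 7.10 and 6.64 in ISR2 arrays and 8.02, 7.97 and 7.63 in wild type arrays. The part of T cells in the fall of Dgka was not tested.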

How the data were processed

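Total RNA of jejunal mucosal scrapings received a biotin label in the Affymetrix WT protocol, per the labels. The authors deposited log2 values from RMA, per the submitters' processing notes; that they are log2 was read from the range of 1.44 to 14.8. For the version of RMA and for filters, nothing is given in the sources used here.

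Among the 35556 rows, 21789 had 1 gene symbol in the array's annotation, 1621 had several and 12146 had none. Rows with 1 symbol were used; for the 999 genes with several rows, the brightest row (mean over all 6 arrays) was kept, which left 19938 genes. By Entrez ID, 19856 of them were found in the RefSeq gene table (GRCm38.p6), with 0 changes of symbol. The annotation names no build, so coordinates are given only for RefSeq promoters.

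Sample titles gave the groups. The model was lmFit followed by eBayes (limma 3.58.1, R 4.3.3), ISR2 minus wild type over 6 arrays without covariates; p-values are two-sided and adjusted by Benjamini-Hochberg over all genes. The fit was tested on simulated data. For single genes, the SE, interval and p-value use the variance from eBayes, which draws each gene's variance towards that of all genes. Differences between 2 genes' changes were tested by exact permutation over the arrays (20 regroupings) and adjusted over 8 pairs. Their SE uses the pooled SD of the within-array differences alone. Plots used matplotlib 3.10.9 (Python 3.11.15).

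The members, lists and alternatives were chosen with earlier results of these data known. All 10 members are named; of each pathway list the genes that passed, or else the gene with the largest difference; and the 5 genes closest to Lpin1. Gpat2, Gpat3, Gpat4, Ctdnep1, Pgs1, Pcyt2 and the marker genes with values were named after their values were seen. Alternatives were robust eBayes, array weights, median centring, a filter on dim genes (under the 25th percentile of mean level, which all 10 members passed), the test of every row, averaging a gene's rows, a replicate block, and arrays left out. Leaving out replicate 2 of both groups was chosen after seeing the data. List members with no single-symbol row were not analysed here.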

Additional observations from a re-analysis of the deposited data

How the results depend on the processing

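Under 15 alternatives each of the 10 genes kept the direction of its change. Only median centring could have reversed a direction. The groups did not overlap in any of the 10, so leaving out or reweighting arrays cannot change a sign. The remaining settings leave the estimate of these genes as it was. Lpin1 (4.05 to 4.16 on the log2 scale) and Gpam (3.08 to 3.48) passed in all 15, and Agpat1, Agpat2, Agpat3, Lpin3, Mogat2 and Dgat1 in 0 of 15. Lpin2 lost its call in 9 of 15, the 8 settings with fewer arrays and the test of all rows (adjusted p = 0.0877). Dgat2 lost it in 7 of 15, which left 0 members lower with median centring, with all rows, and in 5 of the 6 fits without 1 array; fits without 1 array had 2 members higher and 0 to 1 lower. Over all genes 602 were called as reported, 1268 with array weights, 775 without ISR2 replicate 2 and wild type replicate 3 together, and 335 to 589 without 1 array, of which 335 without ISR2 replicate 1, 345 without wild type replicate 1 and 388 without wild type replicate 2. In the list of other triglyceride synthesis enzymes, 1 fell with array weights and 1 with a replicate block (Plpp1 in both). In the list of other diacylglycerol and phosphatidic acid enzymes, 3 rose with array weights, 3 with median centring, 2 with a replicate block, 2 without wild type replicate 3 and ISR2 replicate 2, 0 with all rows and 0 to 2 without 1 array. The genes gained were Pgs1 and Pcyt2, which make phosphatidylglycerol phosphate and CDP-ethanolamine. The count that fell was 0 to 1 without 1 array and 0 without replicate 2 of both groups. The cause of these shifts was not tested.

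The labels link arrays of the groups only by their number. Deviations of same-numbered arrays from their group means correlated across genes at -0.02, 0.32 and 0.54 for replicates 1, 2 and 3. Those of replicates 2 and 3 were the highest of all pairs between the groups. For each gene the deviations cancel within a group, so the correlations of the pairs are not independent of each other. Wild type replicate 1 correlated best with ISR2 replicate 2 (0.20). What same-numbered arrays have in common was not tested. With the replicate block 778 genes were called, 3 members rose and 1 fell.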
